A study of Mus musculus with 18 samples.

Results

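Conditional knockout mouse stem cell lines for Mettl14 and for Mettl3 were compared at their baseline, the libraries labelled as controls of the Mettl14 line against those labelled as controls of the Mettl3 line. The members were chosen by label alone and are 6 of the 18 libraries of the series, 3 of each line, with every counted gene kept. Both lines were C57BL/6 embryonic stem cells, maintained with LIF, the GSK3 inhibitor CHIR99021 and the MEK inhibitor PD0325901, then left to differentiate for 7 days into embryoid bodies, free-floating aggregates, with no feeder cells. The other 12 libraries are labelled as the knockout of each gene, alone or with an inhibitor at 5 µM: GSK-343, an inhibitor of EZH2, the enzyme that methylates H3K27, in the Mettl14 line, and GSK-J4, an inhibitor of the enzymes that remove H3K27 methylation, in the Mettl3 line. Neither control group carries an inhibitor in its label; whether the controls received the solvent DMSO, how the conditional gene is deleted, which recombinase is used and whether each line is 1 clone is not stated in the labels. The line and any batch of culture, RNA or sequencing cannot be told apart, since each line was a group of its own and the labels give no batch. Nothing says that the 3 replicates of a group came from separate cultures, so p-values measure the spread between these libraries, which may be technical.

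METTL3 and METTL14 form the core of the enzyme that places N6-methyladenosine, m6A, on messenger RNA: METTL3 holds the catalytic site and METTL14 helps bind the RNA. The series asks whether METTL14 also acts on chromatin, and the control libraries are the starting point from which each knockout is read. Part of the genes that separated the lines belong to the acute phase and NF-kB response. In that response, ligands such as IL-1, TNF or bacterial products act through receptors to release NF-kB from its inhibitor in the cytoplasm, and NF-kB then switches on chemokines, cytokines, secreted defence proteins and its own inhibitors.

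Mettl14 (chromosome 3: 123368297 to 123386108, mm10) had a level of 17.3, 18.7 and 17.2 CPM (counts per 1e6 counts of the library, scaled by edgeR's TMM factors) in the 3 Mettl14 controls and 21.1, 20.9 and 23.8 in the 3 Mettl3 controls. Mettl3 (chromosome 14: 52294841 to 52305128) had 18.4, 20.5 and 21.5 CPM against 19.6, 33.3 and 18.3. Neither gene passed the test between the control groups, with log2 differences, always Mettl14 line minus Mettl3 line, of -0.31 ± 0.25 (SE) for Mettl14 and -0.24 ± 0.28 for Mettl3, and edgeR adjusted p = 0.723 and 0.834. In plain CPM, Mettl14 was at 15.3, 22.9 and 17.6 in the Mettl14 libraries labelled knockout and Mettl3 at 25.9, 6.9 and 18.1 in the Mettl3 libraries labelled knockout, overlapping their own controls at 16.8 to 18.1 and 18.6 to 33.6. Whether the counted part of either gene includes the deleted part is not given in the sources used here, so these levels do not check the labels, and the later text speaks of libraries labelled knockout.

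The control libraries held 8288902, 8307898 and 10285737 counts in the Mettl14 line and 21615674, 29496824 and 28675092 in the Mettl3 line, so the depths of the groups did not overlap. A count of 3, the floor used below for genes without a count, was worth 0.292 to 0.362 CPM in the Mettl14 controls and 0.102 to 0.139 CPM in the Mettl3 controls; such floors cover counting error only. Mitochondrially encoded mRNA made 1.79 to 2.77% of counts against 2.25 to 2.64%, and genes overlapping ribosomal RNA sequence made 0.233 to 0.612% against 0.811 to 1.14%. Spearman correlations of log CPM across genes were 0.961 to 0.972 within the Mettl14 controls, 0.963 to 0.972 within the Mettl3 controls and 0.932 to 0.956 between them.

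In both lines fibroblast markers were high and pluripotency markers were near 0. The 5 protein-coding genes with the most counts were Spp1 (osteopontin), Fn1 (fibronectin), mt-Co1, Col1a1 and Eef1a1, and 8 of 8 fibroblast markers were high enough to test, with a summed level of 11363 to 13207 CPM in the Mettl14 controls and 6920 to 10600 CPM in the Mettl3 controls. Pou5f1 was at 0 in 5 of the 6 libraries, and the 7 pluripotency markers together reached 1.39 to 3.41 and 0.537 to 7.65 CPM. Endoderm, erythroid and trophoblast markers summed to at most 2.42 CPM in any library, although embryoid bodies are used to obtain derivatives of all germ layers. Neural markers summed to 24.8 to 40.5 CPM in the Mettl14 controls and 66.1 to 88.4 CPM in the Mettl3 controls. Macrophage markers summed to 9.86 to 36.8 CPM against 6.24 to 57.3 CPM. Xist, the RNA that coats the inactive X chromosome of female cells, was at 329, 272 and 175 against 201, 173 and 209 CPM, while the Y-linked gene Ddx3y was at 137, 97.8 and 73.8 against 64.5, 67.3 and 90.4 CPM. Xist, Ddx3y, Eif2s3y, Kdm5d and Uty were thus all counted in all 6 libraries, and none of the 5 passed the test between the lines.

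Of 14627 genes tested, 583 passed at an adjusted p under 0.05 (3.99%, edgeR quasi-likelihood test with Benjamini-Hochberg adjustment), here called. Of these, 423 were higher in the Mettl14 controls (2.89%) and 160 were lower (1.09%). At an unadjusted p under 0.05 there were 1907 genes, where 731 would be expected if no gene differed. Without Mettl14 control replicate 2 there were 357 calls, 251 higher and 106 lower. A fold of at least 2 was seen for 465 of the 583, and 91 of the genes called higher but 21 of those called lower differed by at least 8-fold. The control groups did not overlap in 581 of the 583 called genes, against 2798 of all 14627 tested (19.1%). A lack of overlap given below for a called gene therefore adds little to its call. The median log2 difference over all genes tested was -0.0084 after TMM scaling, which centres the gene differences, so a shift common to all genes could not be seen in these values. On the plot of the log2 difference against expression, the called genes with the greatest distance from 0 lay on the higher side.

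**Figure D1:**
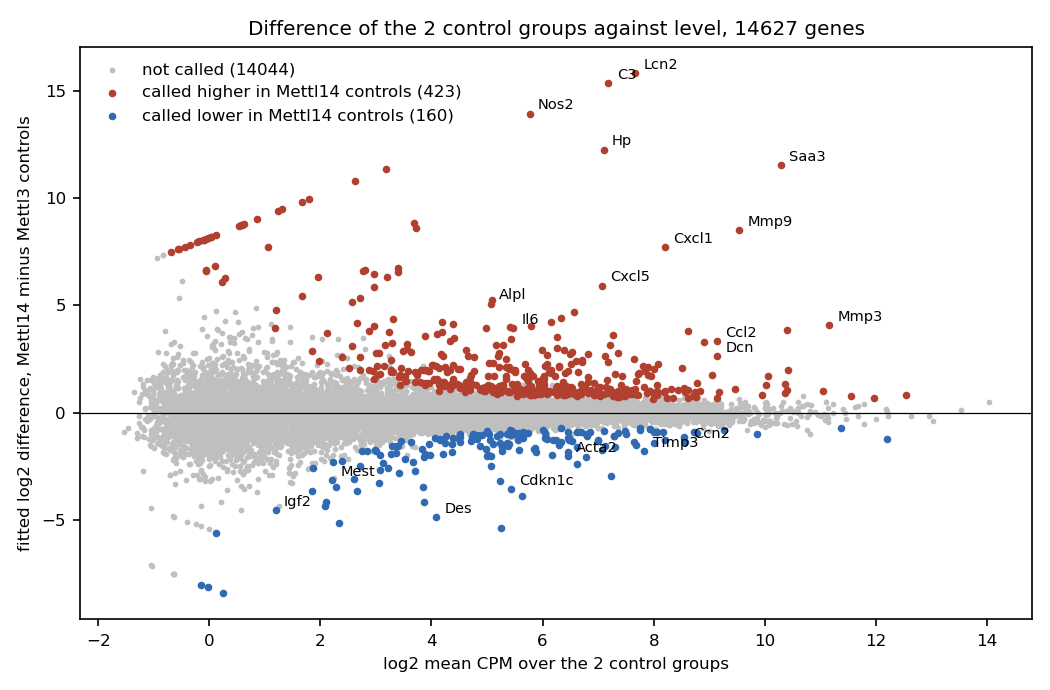
Log2 difference of the control groups (Mettl14 line minus Mettl3 line, vertical) against the log2 mean CPM of the 6 control libraries (horizontal), 1 point per gene tested: 14044 genes not called in grey, 423 called higher in red and 160 called lower in blue. Saa3, Lcn2, Hp, C3 and Nos2 stand above a log2 difference of 11; for genes without a count in a group the height depends on the small count the fit adds and is no measured fold.

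Among called genes of at least 10 CPM, the greatest differences were in the RNA of acute phase and host defence genes. It was high in the Mettl14 controls and hardly counted in the Mettl3 controls. Protein was not measured. Saa3, an acute phase apolipoprotein made outside the liver (chromosome 7: 46711998 to 46715700, mm10), was at 2101, 2496 and 2902 CPM in the Mettl14 controls and at 0.224, 0.269 and 1.93 CPM in the Mettl3 controls. Its log2 difference was 11.54 ± 0.57 (adjusted p = 2.18e-09), and no library of one group came near the other. Lcn2, lipocalin 2, which binds bacterial iron carriers (chromosome 2: 32384633 to 32388252), had 304, 345 and 565 CPM in the Mettl14 controls and no count in any Mettl3 control. Against the floor of 3 counts per library it was at least 3585-fold higher. Complement C3, the central protein of the complement cascade, was at 274, 372 and 226 CPM and had no count in the Mettl3 controls, at least 2574-fold higher. Nos2, the inducible nitric oxide synthase, was at 96.1, 144 and 87.3 CPM with no count in the Mettl3 controls, at least 965-fold higher. Hp, haptoglobin, which binds free haemoglobin, was at 162, 237 and 423 CPM against 0, 0 and 0.138 CPM, where the last value rests on 4 counts.

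A further 25 genes called higher had no count in the Mettl3 controls, 28 in all. Those with at least 5 CPM in each Mettl14 control, beside Lcn2, C3 and Nos2, were the neutrophil-drawing chemokine Cxcl2 (9.74, 22.5 and 21.9 CPM, at least 160-fold higher), U90926 (14.5, 7.22 and 15.2 CPM, at least 109-fold) and the predicted gene Gm16685 (7.18, 5.35 and 8.35 CPM, at least 61.7-fold). In the other direction, 3 genes called lower had no count in the Mettl14 controls, and none of those reached 5 CPM in each Mettl3 control. The median log2 difference was 1.57 for the genes called higher and -1.41 for the genes called lower. Placing genes without a count at their floor could not move these medians, since each such gene still lay beyond them. Differences of the size of Saa3 or Lcn2 were therefore not typical of the called genes.

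The acute phase and NF-kB response genes, a list written after the values had been seen and so no evidence of its own direction, were higher in 23 of 38 tested members, with a median log2 difference of 1.88. By edgeR none was called lower (1 at an unadjusted p under 0.05, none by DESeq2 or voom). The genes of this paragraph that the naming rule does not name were chosen after their values were seen. Cp, the copper-carrying ferroxidase ceruloplasmin, was at 811, 777 and 611 CPM against 28.8, 59.2 and 69 CPM (log2 difference 3.81 ± 0.28). Chil1, a secreted chitinase-like protein, was at 145, 172 and 144 against 11.7, 6.68 and 3.38 CPM (4.42 ± 0.35). The prostaglandin enzymes moved the same way: Ptgs2, cyclooxygenase 2, differed by 1.75 ± 0.19 and Ptges, prostaglandin E synthase, by 2.78 ± 0.21 on the log2 scale. Genes that restrain the response were higher as well. Nfkbia, the inhibitor that holds NF-kB in the cytoplasm and is itself an NF-kB target, was at 78.3, 96.3 and 147 CPM against 33.7, 18.1 and 20.2 CPM (2.16 ± 0.28), and the log2 differences were 2.83 ± 0.36 for Tnfaip3, the ubiquitin-editing enzyme A20, and 4.06 ± 0.27 for Zc3h12a, an RNase that degrades cytokine mRNAs. Of the NF-kB subunits, Nfkb1 (p105) was at 173, 170 and 169 against 53.5, 46.2 and 62.8 CPM, with no overlap. Rela (p65) was at 86.9, 96.8 and 93.9 against 91.7, 73.8 and 81.3 CPM, where the groups overlapped and the test was not passed (0.17 ± 0.18, adjusted p = 0.812).

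Among chemokines and cytokines, 14 of 20 tested members were higher and 1 was lower, with a median log2 difference of 2.38. Cxcl1, which draws neutrophils through CXCR2, was at 511, 483 and 768 CPM against 2.24, 0 and 6.2 CPM (7.70 ± 0.78, adjusted p = 1.1e-05). Cxcl5, a ligand of the same receptor, was at 260, 223 and 311 against 4.98, 4.2 and 3.96 CPM (5.92 ± 0.24, adjusted p = 3.48e-10). Both lie with Cxcl2 in the CXC chemokine cluster of chromosome 5. Ccl2, which draws monocytes, was already at 107, 88.5 and 114 CPM in the Mettl3 controls and reached 1043, 884 and 1150 CPM in the Mettl14 controls (3.31 ± 0.19, adjusted p = 2.57e-08). Il6, the cytokine that drives the hepatic acute phase response, was at 94.2, 71.8 and 83.3 against 4.71, 6.68 and 4.69 CPM (3.95 ± 0.25, adjusted p = 6.07e-08). Il1a, an IL-1 receptor ligand, was at 18.6, 33 and 25 CPM against 0, 0 and 0.138 CPM. For these 5 genes every Mettl14 control lay above every Mettl3 control. Named after their values were seen, the cytokine Lif differed by 2.82 ± 0.26, Cxcl16 by 2.91 ± 0.24 and Ccl7 by 1.95 ± 0.20 on the log2 scale. The lower member was Cxcl12, a chemokine of stromal cells that acts through CXCR4, at 57.8, 38.6 and 38.9 against 113, 111 and 126 CPM (-1.37 ± 0.21).

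The promoters of these genes were read for 2 forms of the NF-kB site, GGGNNTTNCC and GGGAANNNCC, 10 bases long and overlapping each other, on both strands of the 250 bases before the RefSeq start site (GRCm38.p6). The 250 bases of Cxcl1, Cxcl2 and Il6 are shown because they hold a match, and those of Lcn2 because it had no count in the Mettl3 controls and holds none; capitals mark the matches, and each is written 5′ to 3′ on the gene's strand. The windows are chr5:90890995-90891244 (+) for Cxcl1, chr5:90903649-90903898 (+) for Cxcl2, chr5:30012864-30013113 (+) for Il6 and chr2:32387740-32387989 (-) for Lcn2. The Lcn2 window lies inside the gene span given above, so the bases before the 5′ end of that span were not searched.
Cxcl1: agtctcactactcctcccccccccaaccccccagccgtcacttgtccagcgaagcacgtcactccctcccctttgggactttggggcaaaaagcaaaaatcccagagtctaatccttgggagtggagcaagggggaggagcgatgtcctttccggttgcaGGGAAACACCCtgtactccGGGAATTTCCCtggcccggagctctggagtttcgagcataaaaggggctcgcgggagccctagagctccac
Cxcl2: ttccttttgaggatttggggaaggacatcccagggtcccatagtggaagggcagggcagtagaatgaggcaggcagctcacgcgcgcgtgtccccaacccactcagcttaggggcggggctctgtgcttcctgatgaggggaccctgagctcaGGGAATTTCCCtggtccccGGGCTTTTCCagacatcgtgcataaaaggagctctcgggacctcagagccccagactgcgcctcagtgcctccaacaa
Il6: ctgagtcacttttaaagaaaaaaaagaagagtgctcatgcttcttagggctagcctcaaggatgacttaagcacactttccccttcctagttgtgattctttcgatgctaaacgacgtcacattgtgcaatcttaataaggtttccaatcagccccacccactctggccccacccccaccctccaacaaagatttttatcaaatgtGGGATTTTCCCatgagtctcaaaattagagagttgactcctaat
Lcn2: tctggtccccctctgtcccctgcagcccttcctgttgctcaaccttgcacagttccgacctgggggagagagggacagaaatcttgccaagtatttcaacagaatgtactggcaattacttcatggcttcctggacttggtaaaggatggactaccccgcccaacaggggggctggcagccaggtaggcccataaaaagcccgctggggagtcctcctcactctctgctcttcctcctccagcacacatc

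Cxcl1 and Cxcl2 share the letters GGGAATTTCC, which begin 71 bases before the start site in Cxcl1 and 97 in Cxcl2. Of the 18 inflammatory and other high genes searched by name, Cxcl1, Cxcl2 and Il6 held a match, and Nos2, Hp, Mmp9, Cxcl5, Ccl2 and Serping1 were not in the promoter table. Over all protein-coding genes, 14.8% of the 311 matched genes called higher held a match, against 4% of the 100 matched genes called lower, 7.77% of the 9565 not called and 6.8% of all 27025 promoters in the table. Of the 50 genes called higher on the inflammatory lists, 35 had a promoter in the table and 14 of them held a match (40%). Part of those lists, the acute phase and NF-kB response genes among them, was chosen after the values were seen. The choice of genes could thus raise this share, which is no evidence of its own. The share among uncalled members of the same lists was not computed. Further examples, in windows of 30 bases, are the inhibitor Nfkbia (chr12:55492657-55492686, -), the growth factor Csf1 (chr3:107760605-107760634, -) and the antigen-presenting H2-K1 (chr17:34000439-34000468, -) and H2-D1 (chr17:35262913-35262942, +), whose windows carry the same 10 capital letters.
Nfkbia: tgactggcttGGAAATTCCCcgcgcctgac
Csf1: cgggccttgaGGGAAAGTCCctaggggcca
H2-K1: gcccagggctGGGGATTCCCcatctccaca
H2-D1: gcccagggctGGGGATTCCCcatctcctca
A match describes letters in the window, not a bound site.

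The receptors and ligands that lie upstream of NF-kB, a list also written after the values were seen, were higher in 5 of 28 tested members, with a median log2 difference of 0.40. By edgeR none was called lower, while at an unadjusted p under 0.05 there were 10 higher and 3 lower members, DESeq2 called 6 higher and 1 lower, and voom called 6 higher and none lower. The 5 were Il1a, Il1rap, Tlr2, Tnfrsf1b and Cd14. Tlr2, the receptor for bacterial lipoproteins, was at 124, 152 and 130 CPM against 7.94, 3.53 and 10.1 CPM (4.24 ± 0.32, adjusted p = 4.15e-07). Il1rap, the co-receptor for IL-1, differed by 1.87 ± 0.24, Tnfrsf1b, a TNF receptor, by 1.68 ± 0.22, and Cd14, a co-receptor for lipopolysaccharide named after its value was seen, by 1.88 ± 0.36. The ligands Tnf, Il1b and Il17a were too low to test: Il17a was at 0 in all 6 libraries, Il1b was at 0.487 CPM in 1 library and 0 in the others, and Tnf was at 1.7 CPM or less in each. Tnfrsf9, a TNF receptor family member best known on activated T cells, was at 28, 27.8 and 23.2 CPM against 0.0448, 0 and 0.138 CPM.

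Markers of blood cells were set beside these genes. Leukocyte markers, listed after the values were seen, summed to 19.9 to 26.1 CPM in the Mettl14 controls and to 1.55 to 6.19 CPM in the Mettl3 controls. S100a8, a calcium-binding protein of neutrophils that other cells can also make, accounted for 23.7, 16.6 and 22 CPM of that sum and had 0.628, 0 and 0 CPM in the Mettl3 controls (6.75 ± 0.86, adjusted p = 0.000123). Cd79a, S100a9 and Ly6g were at 0 in all 6 libraries, and the pan-leukocyte gene Ptprc was at 0 to 0.871 CPM against 0 to 1.55 CPM. Adgre1, which marks macrophages, was at 0, 1.87 and 0.199 CPM in the Mettl14 controls and 0 in the Mettl3 controls. In bulk RNA, more cells of a type and more RNA per cell cannot be told apart.

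**Figure D2:**
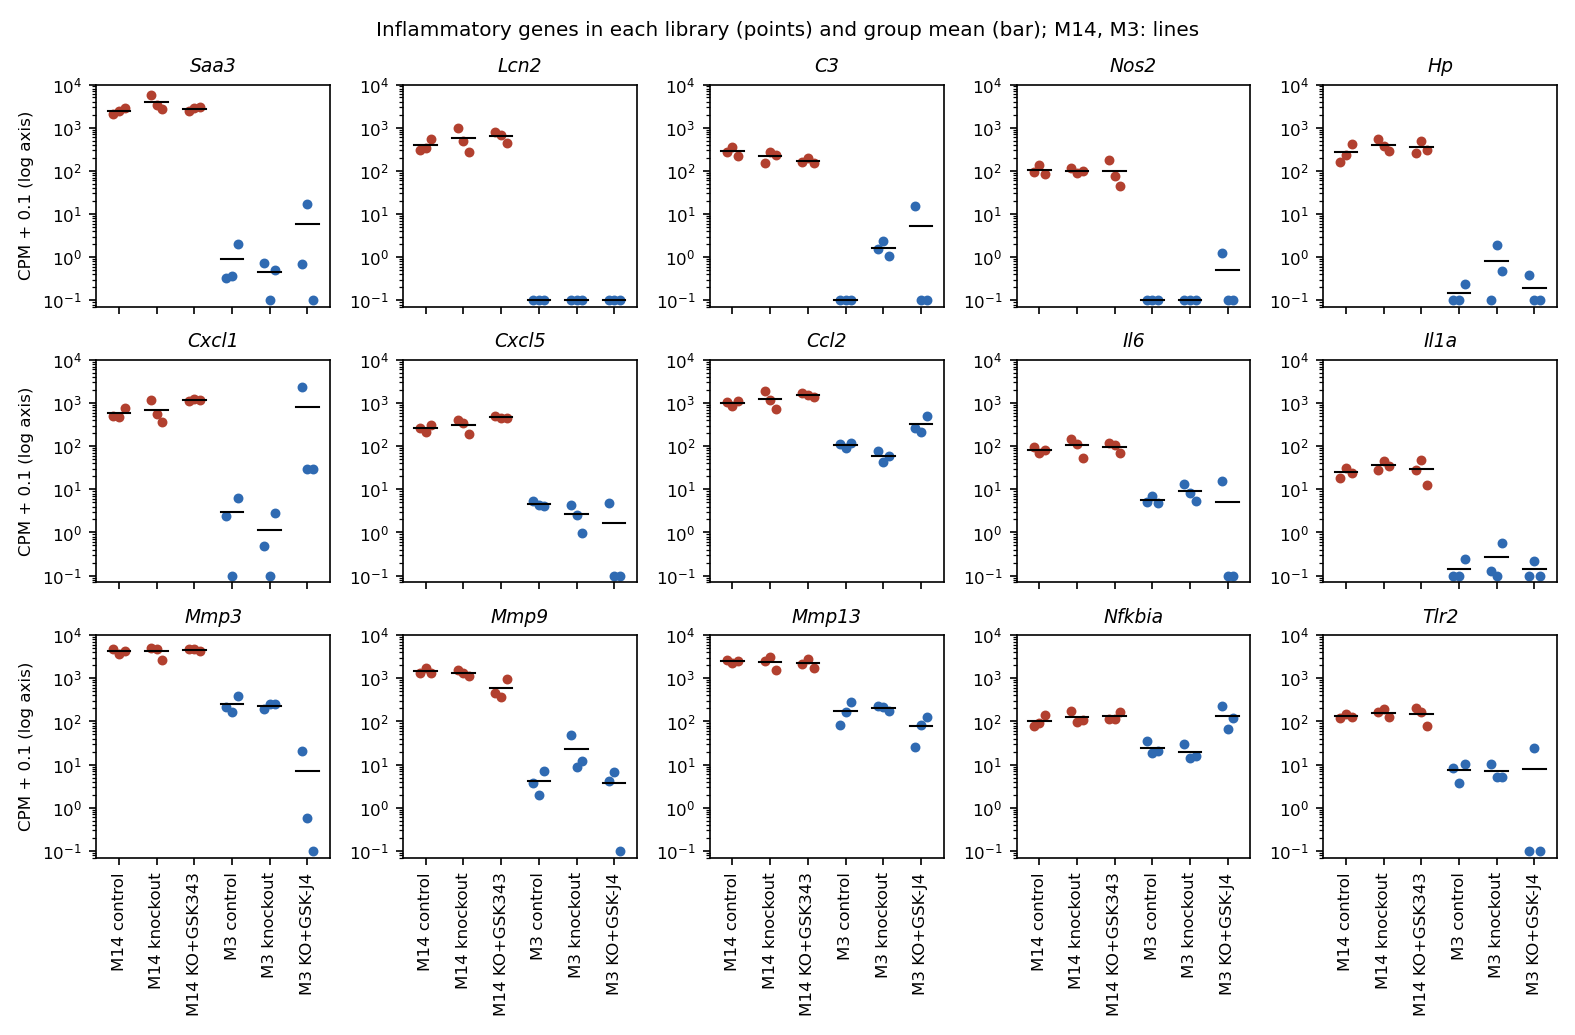
Plain CPM plus 0.1 on a log axis (vertical) for 15 inflammatory and protease genes, 1 panel each, in the 6 groups of the series (horizontal); points are libraries and the bar is the group mean. Saa3, Lcn2, C3, Nos2, Hp, Cxcl1 and Cxcl5 lie higher in every library of the Mettl14 line than in every control and knockout-labelled library of the Mettl3 line.

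Complement genes were higher in 5 of 12 tested members (median 0.98), and none was lower by edgeR, DESeq2 or voom or at an unadjusted p under 0.05. Beside C3 they included the classical pathway proteases C1s1 and C1ra and their inhibitor Serping1. C1s1 was at 66.2, 68 and 64.3 against 1.75, 1.58 and 1.86 CPM (5.25 ± 0.26, adjusted p = 2.18e-09), and Serping1 at 253, 256 and 287 against 31.1, 22.7 and 36 CPM (3.15 ± 0.21, adjusted p = 1.16e-07). C1ra differed by 2.08 ± 0.35. MHC class I presentation genes were higher in 4 of 12 (median 0.66). H2-K1 was at 46.8, 65 and 73.4 against 15, 24.1 and 18.4 CPM (1.69 ± 0.25, adjusted p = 0.000526). The other 3 were H2-Q4, H2-D1 and B2m, and class I genes are close copies whose reads the counting could split, so their single values are uncertain. H2-D1 lost its call without Mettl14 control replicate 2 (0.86, edgeR adjusted p = 0.0604) and B2m in 5 of the 6 fits that left out a library (edgeR adjusted p up to 0.142).

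Of 27 tested interferon response genes, 2 were called higher (median 0.24), and none was lower by edgeR, DESeq2 or voom or at an unadjusted p under 0.05. In the libraries labelled knockout 2 of 24 were higher, with a median of 1.47, which was 1.85 without Mettl14 knockout replicate 3, a shallow library. The 2 called in the controls were Ifit1 and Ifitm3. Ifit1, an RNA-binding antiviral protein, was at 1.1, 20.3 and 1.59 CPM against 0.179, 0 and 0.103 CPM, so its level came from 1 library, and without Mettl14 control replicate 2 its log2 difference was 3.77 (edgeR adjusted p = 0.697). Ifitm3 lost its call without Mettl3 control replicate 3 (0.89, edgeR adjusted p = 0.0707).

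Matrix proteases differed at high levels of expression. Of 29 tested proteases and inhibitors, 8 were higher and 3 lower (median 0.42). Mmp3, stromelysin 1, which cuts many matrix proteins, was at 4786, 3773 and 4446 CPM in the Mettl14 controls and 213, 165 and 386 CPM in the Mettl3 controls (4.09 ± 0.28, adjusted p = 1.26e-07). Mmp13, a collagenase, was at 2681, 2320 and 2529 against 80.9, 166 and 283 CPM (3.83 ± 0.34, adjusted p = 2.48e-06). Mmp10, named after its value was seen, differed by 1.81 ± 0.21, and it lies with Mmp3 and Mmp13 between positions 7272514 and 7510240 of chromosome 9. Mmp9, a gelatinase encoded on chromosome 2, was at 1351, 1763 and 1335 CPM against 3.45, 1.85 and 7.03 CPM (8.49 ± 0.42, adjusted p = 2.18e-09). No library of either group overlapped the other for these 4 proteases. Among inhibitors, Timp3, which stays bound to the matrix, was lower at 104, 93.1 and 108 against 415, 288 and 360 CPM (-1.80 ± 0.19, adjusted p = 1.81e-05). Of the plasminogen system, both named after their values were seen, the activator Plau differed by -1.19 ± 0.25 (call lost without Mettl14 control replicate 1, edgeR adjusted p = 0.0568) and Serpine2 (protease nexin 1) by 1.01 ± 0.16 on the log2 scale.

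Contractile genes were lower in the Mettl14 controls, with 6 of 14 tested members lower (median -1.14) and none higher by edgeR, DESeq2 or voom or at an unadjusted p under 0.05. Acta2, smooth muscle actin, was at 14.6, 51.7 and 37 CPM in the Mettl14 controls and 149, 146 and 127 CPM in the Mettl3 controls (-2.03 ± 0.32, adjusted p = 0.000892). Tagln, an actin-binding protein of smooth muscle, was at 12.1, 37.2 and 76.8 against 198, 177 and 163 CPM (-2.09 ± 0.41, adjusted p = 0.00628). Des, the muscle intermediate filament desmin, was at 0, 0.996 and 2.19 against 3.95, 74.1 and 20.2 CPM (-4.88 ± 0.92, adjusted p = 0.00432), where the Mettl3 controls varied widely among themselves. Tpm2, a tropomyosin, differed by -1.29 ± 0.25. Smooth muscle markers, which share Acta2, Tagln and Des with the list, summed to 27.2 to 117 CPM against 314 to 397 CPM, and the smooth muscle myosin Myh11 and the calponin Cnn1 were too low to test in both lines.

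Imprinted genes, which are expressed from 1 parental copy and include several growth regulators, were lower in 8 of 29 tested members (median -0.45). By edgeR none was called higher (1 at an unadjusted p under 0.05, none by DESeq2 or voom). Cdkn1c, the growth-restraining cyclin-dependent kinase inhibitor p57 (chromosome 7: 143458339 to 143461050, mm10), was at 6.94, 3.86 and 9.25 CPM against 68.3, 69.1 and 102 CPM (-3.56 ± 0.31, adjusted p = 2.08e-06). H19, a maternally expressed noncoding RNA of the same chromosome (142575529 to 142578143), was at 38.7, 13.8 and 41.9 against 238, 124 and 131 CPM (-2.38 ± 0.35, adjusted p = 0.000448). Dlk1, a paternally expressed Notch-like ligand on chromosome 12, was at 12.3, 13.7 and 13.9 against 67.3, 66.6 and 26.9 CPM (-2.01 ± 0.31, adjusted p = 0.000844). Grb10, an adaptor that damps insulin receptor signalling, was at 115, 115 and 102 against 273, 307 and 281 CPM (-1.37 ± 0.17, adjusted p = 0.000111). None of these 4 overlapped between the groups. Not every gene of a shared domain differed: Meg3, the maternal RNA of the Dlk1 domain, was at 196, 201 and 242 against 214, 104 and 180 CPM and did not pass the test (0.36 ± 0.23). Named after their values were seen, Peg3 differed by -1.14 ± 0.23, and Igf2, the growth factor next to H19, was low in both lines at 0, 0.124 and 0.398 against 5.87, 1.48 and 5.86 CPM. Igf2 and Mest, at log2 differences of -4.54 and -3.13, lost their calls without Mettl14 control replicate 1 or 2 or Mettl3 control replicate 1, and Igf2 also without Mettl3 control replicate 3.

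**Figure D3:**
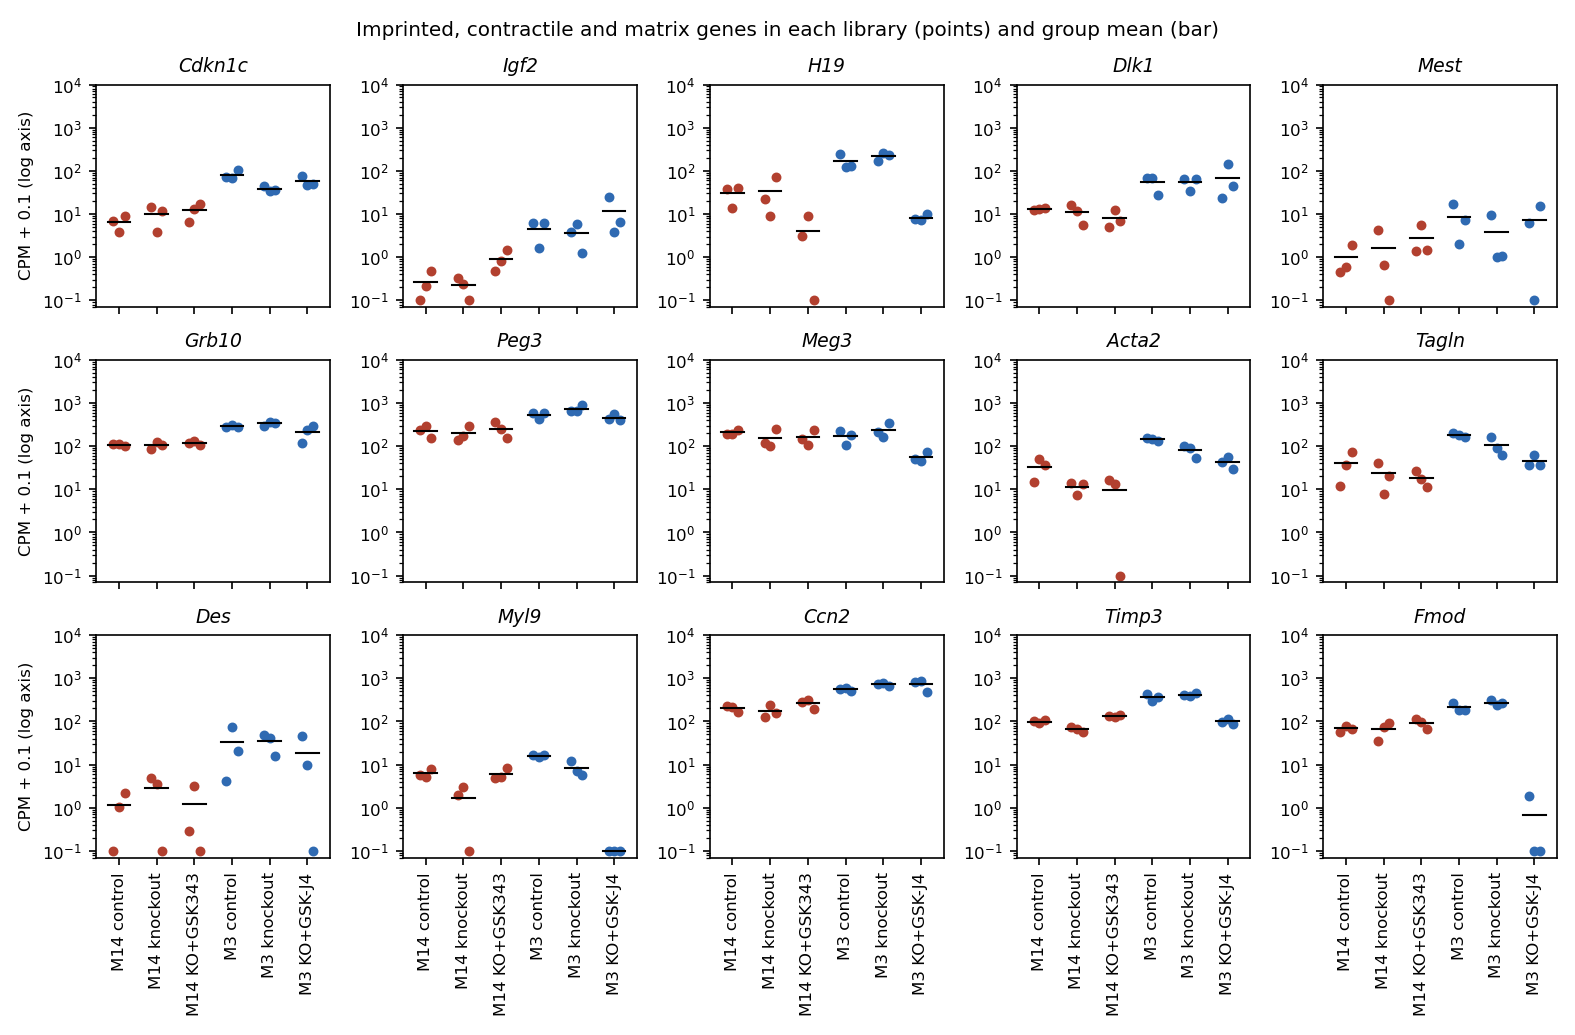
Plain CPM plus 0.1 on a log axis (vertical) for 15 imprinted, contractile and matrix genes, 1 panel each, in the 6 groups of the series (horizontal); points are libraries and the bar is the group mean. Cdkn1c, Grb10, Acta2, Tagln and Ccn2 lie lower in every Mettl14 control than in every Mettl3 control, while Meg3 overlaps.

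The matrix proteins themselves were split. Fibrillar and associated collagens were higher in 3 of 19 tested members (median 0.25). By edgeR none was called lower, but 5 were lower at an unadjusted p under 0.05, and DESeq2 and voom each called 4 higher and 4 lower. Col3a1, the chain of type III collagen, was at 615, 708 and 447 against 938, 717 and 1495 CPM, with no overlap (-0.83 ± 0.25, edgeR adjusted p = 0.0796). In the libraries labelled knockout 1 collagen was called higher and 5 lower, with a median of -0.45. The 3 called higher in the controls were Col24a1 (1.20 ± 0.23), Col5a3 and Col1a1. Col1a1, the chain of type I collagen with the most counts of any collagen, was at 6266, 8356 and 7983 against 4167, 3626 and 5164 CPM (0.80 ± 0.18, adjusted p = 0.015), and it lost its call without Mettl14 control replicate 2 (0.72, edgeR adjusted p = 0.0932) and without Mettl3 control replicate 1 or 2 (edgeR adjusted p = 0.059 and 0.0607). Col5a3 lost its call without the same libraries (edgeR adjusted p 0.0599 to 0.113). Dcn, decorin, a proteoglycan that binds collagen fibrils, was at 1237, 722 and 968 against 155, 103 and 220 CPM (2.62 ± 0.27, adjusted p = 1.2e-05). Relatives of decorin differed the other way: Aspn, asporin, was at 9.25, 4.73 and 8.35 against 33.9, 47.3 and 121 CPM (-3.17 ± 0.42), and Fmod, fibromodulin, at 58.7, 83.3 and 69 against 257, 187 and 178 CPM (-1.56 ± 0.21). The small leucine-rich proteoglycans thus had 1 of 8 tested members higher and 2 lower. The collagen crosslinking enzyme Lox was at 1725, 1922 and 1260 against 476, 476 and 560 CPM (1.70 ± 0.19), and Ltbp2, a microfibril protein, at 1866, 2641 and 2018 against 654, 444 and 541 CPM (1.99 ± 0.20).

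Matricellular proteins, which sit in the matrix and act on cells, were higher in 2 of 20 tested members and lower in 4 (median -0.082). Postn, periostin, was at 2743, 1720 and 1205 against 555, 767 and 905 CPM (1.35 ± 0.26), and Smoc2 at 241, 261 and 235 against 44.7, 88.8 and 78.5 CPM (1.80 ± 0.23). In the other direction, Ccn2, a growth factor that TGF beta and mechanical load induce, was at 232, 227 and 172 against 542, 592 and 502 CPM (-1.37 ± 0.18, adjusted p = 0.000169). Comp, cartilage oligomeric matrix protein, was at 0.365, 0.124 and 0.298 CPM, 7 counts in all, against 17.1, 6.11 and 6.13 CPM.

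Col10a1, the collagen of hypertrophic cartilage, was at 8.89, 1.49 and 7.95 against 111, 122 and 44.4 CPM (-3.91 ± 0.48, adjusted p = 8.34e-05). The chondrocyte markers as a whole overlapped between the lines, with sums of 54.5 to 64.2 against 55.9 to 209 CPM. Of the 2 markers tested, Col2a1, the main cartilage collagen, was at 3.9, 0 and 1.39 against 65.5, 3.83 and 153 CPM; the groups overlapped, and DESeq2 did not call it (adjusted p = 0.0534). Sox9, the transcription factor of cartilage, was at 59.7, 54.5 and 62.8 against 63, 52.1 and 49.1 CPM and did not pass the test (0.11 ± 0.20). Of 4 osteoblast markers tested, 1 was called higher, with a median of -0.63; none was called lower by edgeR, DESeq2 or voom, and 2 were lower at an unadjusted p under 0.05. The higher one was Alpl, the alkaline phosphatase of mineralising and of stem cells, at 64.7, 62.5 and 68.4 against 0.628, 1.34 and 3.72 CPM (5.07 ± 0.45, adjusted p = 2.56e-06). The bone matrix protein Ibsp was at 3.53, 0.996 and 2.29 against 15, 2.59 and 4.41 CPM (-1.69 ± 0.69), where the groups overlapped, and the osteoblast transcription factor Sp7 at 5.36, 4.6 and 6.17 against 16.7, 12.4 and 7.34 CPM (-1.17 ± 0.41, edgeR adjusted p = 0.156). Of 3 adipocyte markers, 1 was higher and 1 lower. Fabp4, a fatty acid carrier of adipocytes and macrophages, was at 58.7, 37.7 and 67.1 against 11, 8.09 and 13.4 CPM (2.33 ± 0.28), whereas Pparg, the adipocyte transcription factor, was at 2.44, 4.98 and 4.47 against 11.7, 11.4 and 23.1 CPM (-1.95 ± 0.43). Pparg lost its call without Mettl14 control replicate 1 or Mettl3 control replicate 3 (edgeR adjusted p = 0.0583 and 0.106).

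Secreted growth factors differed in a few members of each pathway. Fgf7, a growth factor that stromal cells send to epithelium, was at 239, 181 and 170 against 26.4, 30.8 and 32.7 CPM (2.71 ± 0.21, adjusted p = 4.56e-07), 1 of 2 genes higher among 15 of FGF signalling; the other, Fgf2 (0.81 ± 0.21), lost its call in 4 of the 6 fits that left out a library (edgeR adjusted p up to 0.149). In BMP and TGF beta signalling, 3 of 28 were higher and 2 lower. Bmp2, a bone-inducing ligand, was at 202, 201 and 128 against 38.9, 26.8 and 32.4 CPM (2.44 ± 0.23, adjusted p = 5.14e-06). The activin subunit Inhba also differed, by 1.08 ± 0.18. Tgfb3, called lower, lost its call without Mettl14 control replicate 2 (-0.88, edgeR adjusted p = 0.0939) or Mettl3 control replicate 1 (-0.81, edgeR adjusted p = 0.0778). The activin subunit Inhbb (-1.19), also called lower, was named after its value was seen. Inhbb lost its call in 5 of the 6 fits that left out a library (edgeR adjusted p up to 0.136).

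In Wnt signalling, 2 of 33 were higher, Notum, an enzyme that inactivates Wnt proteins (2.91 ± 0.42), and Rspo3, a Wnt amplifier (1.85 ± 0.25). The 1 lower member, the secreted Dkk3 (-0.90 ± 0.22), lost its call in 3 of the 6 fits that left out a library (edgeR adjusted p up to 0.191). Both lower genes of hedgehog and Notch signalling, among 14 tested, were in the Notch pathway: the receptor Notch1 (-1.58 ± 0.32) and its target Hey1 (-1.99 ± 0.46), of which Hey1 lost its call without Mettl14 control replicate 1 or 3 or Mettl3 control replicate 3 (edgeR adjusted p 0.0637 to 0.137). In the insulin-like growth factor axis, 4 of 9 were higher and 2 lower, all but Igf2 being genes of the Igfbp series. Igfbp7 was at 1690, 1707 and 1742 against 856, 941 and 954 CPM (0.90 ± 0.16), and Igfbp6, which prefers IGF2, was at 15.2, 22.9 and 28.5 against 60, 70.7 and 90.2 CPM (-1.73 ± 0.26). Igfbp3 lost its call without Mettl3 control replicate 3, Igfbp4 without that library or Mettl14 control replicate 2, and Igfbp5, named after its value was seen, without Mettl14 control replicate 1 or 2, with edgeR adjusted p up to 0.0611, 0.0871 and 0.0587.

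Metabolic and stress lists are set beside the 3.99% of all genes tested that were called (2.89% higher and 1.09% lower). Hypoxia and glycolysis genes were higher in 4 of 28 and lower in 1 (median 0.41): the lactate exporter Slc16a3 (2.14 ± 0.32), the glycolytic enzymes Pfkl (1.14 ± 0.20) and Hk2 (0.89 ± 0.18), and the blood vessel growth factor Vegfa, at 400, 483 and 424 against 200, 225 and 186 CPM (1.10 ± 0.17). The lower one, named after its value was seen, was the glucose transporter Slc2a3 (-1.56 ± 0.37), which lost its call in 3 of the 6 fits that left out a library (edgeR adjusted p up to 0.145). Of 25 genes of the ATF4 stress response 1 was higher and 2 were lower (median -0.14), and of 24 NRF2 antioxidant genes 2 were higher and 2 lower (median -0.18). Among these calls, Slc7a5 (ATF4, lower) was lost in 6 other settings of the fit (edgeR adjusted p up to 0.274). The NRF2 genes Ephx1 (lower) and Gstm2 (higher) were each lost in 3 (edgeR adjusted p up to 0.068 and 0.0954). Slc7a11, the cystine importer that both ATF4 and NRF2 induce, was at 174, 145 and 99.3 against 34.9, 37.7 and 37.4 CPM (1.93 ± 0.22). On the lower side, Ddit3, the stress transcription factor CHOP, was at 87.2, 102 and 102 against 163, 193 and 177 CPM (-0.88 ± 0.18), and Gsta4, a glutathione transferase, at 87.1, 116 and 118 against 250.3, 330.2 and 334 CPM (-1.51 ± 0.20, adjusted p = 0.000143). Slc11a2, an iron importer, was at 79.1, 82.4 and 75.9 against 29, 27.5 and 23 CPM (1.58 ± 0.20). Of 24 p53 targets 1 was higher and 2 were lower. The higher one, Plk2 (0.69), lost its call in 7 other settings of the fit (edgeR adjusted p up to 0.242). The lower ones were the cell death gene Pmaip1 (-1.73 ± 0.19) and the membrane protein Perp (-1.72 ± 0.25). Of 74 positional and mesenchymal transcription factors, 4 were higher and 2 lower, among them Tbx3 (1.40 ± 0.20) and Hand2 (1.23 ± 0.25) on the higher side. Ebf2, which marks preadipocytes among other cells, was at 1.58, 2.12 and 2.19 against 10.3, 13.9 and 9.17 CPM (-2.50 ± 0.45).

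Other protein-coding genes far lower in the Mettl14 controls, by the rule for naming, were the kinase gene Nrk (1.95, 1.37 and 1.29 against 24.2, 7.39 and 51.8 CPM), Fxyd6, a regulator of the sodium pump (0.852, 1.37 and 0.597 against 10.7, 18.5 and 5.69 CPM), Sema7a, a membrane-bound semaphorin (3.29, 3.86 and 0.795 against 13.9, 20 and 22 CPM), and Fam124a (3.04, 2.74 and 4.57 against 23.8, 20.9 and 23.3 CPM). Their log2 differences were -4.18 ± 0.59, -3.64 ± 0.58, -2.83 ± 0.48 and -2.70 ± 0.34. F2rl2, a thrombin receptor, lost its call (-3.09 ± 0.66) without Mettl14 control replicate 1 or Mettl3 control replicate 1 (edgeR adjusted p = 0.0536 and 0.104). Predicted genes of satellite-like sequence, listed after the values were seen, were lower in 5 of 9 tested members (median -3.48). Gm10800 among them was at 13.8, 36.6 and 53.3 against 387, 179 and 228 CPM. They are near-identical repeat copies between which the counting could split reads, so their values are uncertain. Of 4 genes overlapping ribosomal RNA sequence, 2 were lower as well. Of these 2, Gm23935 lost its call in 4 other settings, DESeq2 among them (adjusted p = 0.137), and Gm42418 in 2. In the libraries labelled knockout the median of the 4 was 2.22 (0.475 without the shallow Mettl14 knockout replicate 3). That of the satellite-like genes was -2.11 there. The part of RNA quality or library preparation in both lists was not tested.

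**Figure D4:**
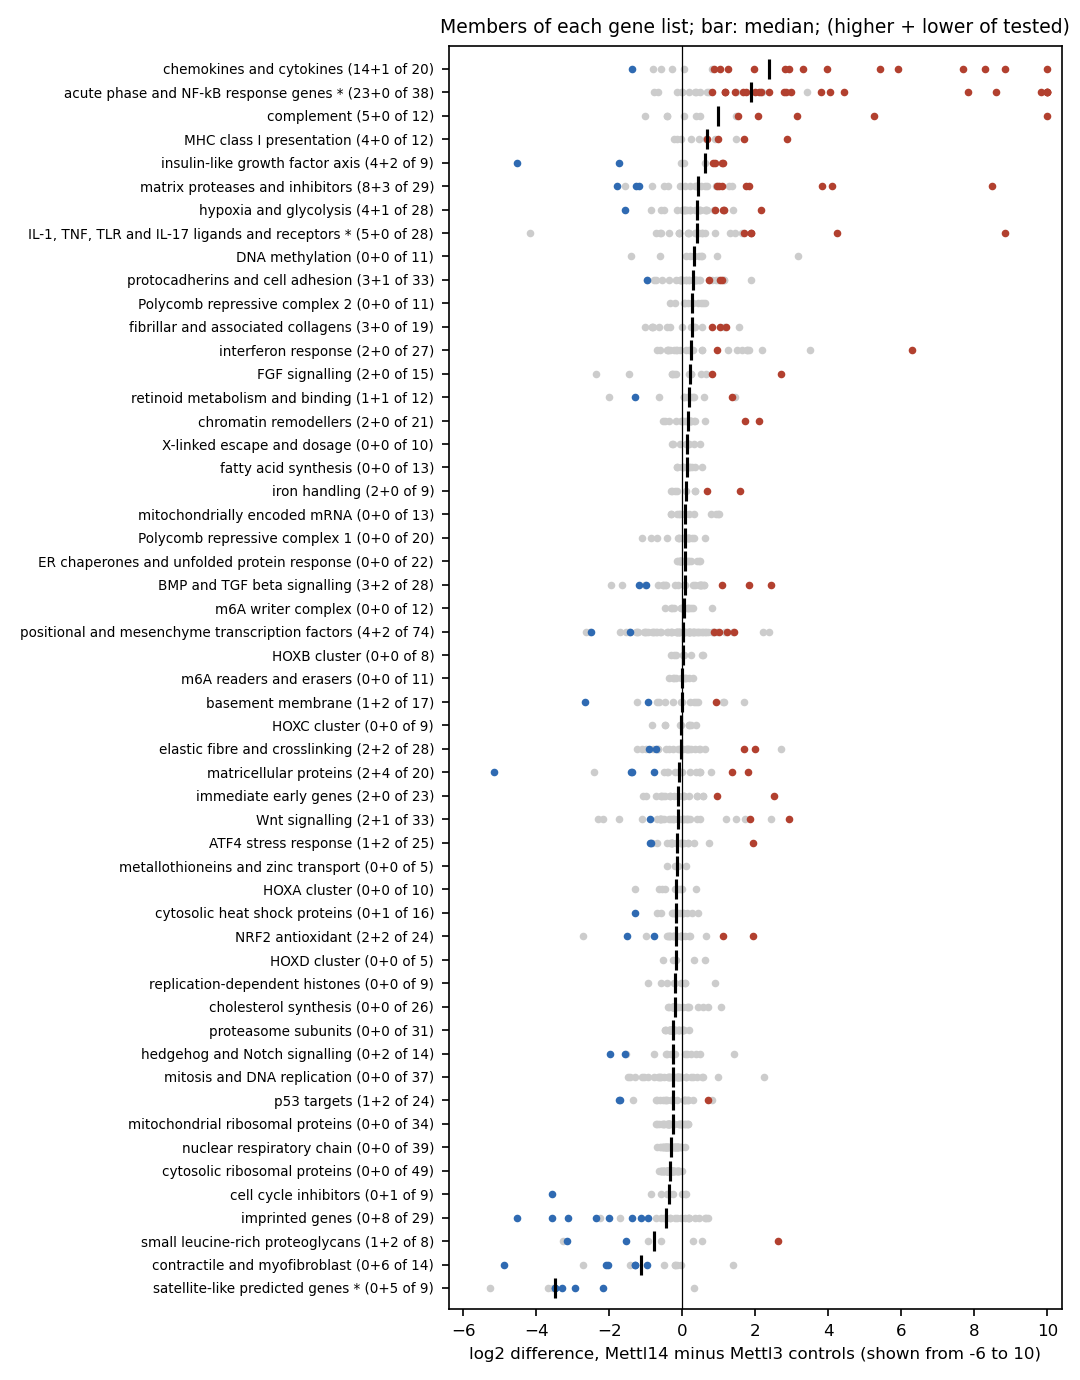
Log2 difference of the control groups (horizontal, Mettl14 line minus Mettl3 line, shown from -6 to 10) for the tested members of each gene list (rows); points are genes, the bar is the list's median, the bracket gives genes called higher and lower of those tested, and a star marks lists written after the values were seen. Chemokines and cytokines (14 higher, 1 lower of 20) stand to the right, contractile genes (0 higher, 6 lower of 14) to the left, and most lists centre near 0.

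Lists without a call in either direction held most of the machinery the series is about, but they were short. Over all genes tested, 3.99% were called and 1907 of 14627 had an unadjusted p under 0.05. A short list without a call lies near the called share and is no result about its members. By edgeR, none of 12 m6A writer complex genes was called, with 1 higher and 1 lower at an unadjusted p under 0.05, and none of 11 readers and erasers, with no gene under that p. None of 11 Polycomb repressive complex 2 genes was called (1 higher at an unadjusted p under 0.05), none of 20 of complex 1 (1 higher and 1 lower) and none of the 3 H3K27 demethylases (none under that p). Ezh2 itself differed by 0.29 and Suz12 by 0.61 on the log2 scale, neither past the test. The HOX genes, 10 of HOXA, 8 of HOXB, 9 of HOXC and 5 of HOXD, had no gene under an unadjusted p of 0.05, and neither had the 37 genes of mitosis and DNA replication. DESeq2 and voom called none in any of these lists. Genes of protein and energy production leaned low without a call by edgeR: 49 of 49 cytosolic ribosomal protein genes had negative differences (median -0.34, 15 at an unadjusted p under 0.05; DESeq2 and voom each called 1 lower), and the 39 nuclear respiratory chain genes had a median of -0.30 (10 at an unadjusted p under 0.05; none by DESeq2 or voom). The summed levels of both lists overlapped between the control groups. They were 19427 to 30453 against 26870 to 36193 CPM for the ribosomal protein genes and 3913 to 5332 against 4993 to 6373 CPM for the respiratory chain. In the libraries labelled knockout the same medians were 0.46 and 0.25, so these small shifts did not keep their sign.

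Called genes came from each of chromosomes 1 to 19 and X. The median log2 difference lay between -0.085 and 0.025 for each of chromosomes 1 to 19, X and M, and the called share was between 2.17% (chromosome 8) and 5.54% (chromosome 3) for the numbered ones. Of 23 mitochondrial and 6 Y-linked genes tested, edgeR called none.

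The libraries labelled knockout of each line, 3 against 3 and none of them a control library, gave a second reading of the line difference. In this reading the gene labelled as knocked out differs as well as the line. Of 14222 genes tested there, 414 were called (2.91%), 265 higher (1.86%) and 149 lower (1.05%) in the Mettl14 line. Of the 423 genes called higher in the controls, 413 were tested, 405 had the same sign and 211 were called higher, which is 49.9% of the control calls and 79.6% of the knockout calls. Of the 160 called lower in the controls, 156 were tested, 149 had the same sign and 76 were called lower, which is 47.5% and 51.0%. No gene was called in opposite directions. Of all 13713 genes tested in both comparisons, 57.5% had the same sign, and of those not called in the controls 55.8%. The knockout count fell to 230 without Mettl3 knockout replicate 1 and to 273 without Mettl3 knockout replicate 3. The median log2 difference of the genes called higher in the controls was 1.51 there and 1.36 in the libraries labelled knockout, and that of the genes called lower was -1.39 and -1.37. Across the 569 called genes tested in both, Pearson's r was 0.92, and across the 13144 genes not called in the controls it was 0.334; genes are not independent, and both readings share the line and whatever goes with it.

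**Figure D5:**
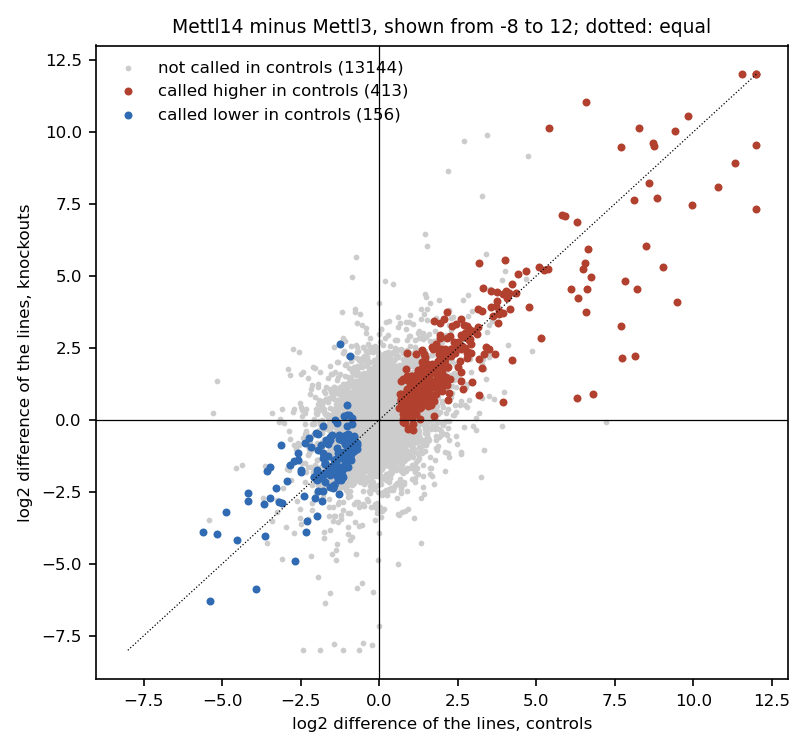
Log2 difference of the lines in the control libraries (horizontal) against that in the libraries labelled knockout (vertical), 1 point per gene tested in both and shown from -8 to 12: 13144 genes not called in the controls in grey, 413 called higher in red and 156 called lower in blue. The dotted line marks equal values. Of the called genes, 405 of 413 and 149 of 156 have the same sign on both axes, against 55.8% of those not called.

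The inflammatory and protease genes kept their difference in the libraries labelled knockout, with log2 differences of 13.42 for Saa3, 9.46 for Cxcl1, 7.08 for Cxcl5, 4.57 for Ccl2, 3.73 for Il6, 6.03 for Mmp9 and 4.35 for Mmp3, all called. Chemokines and cytokines were higher in 15 and lower in 1 of the 20, and contractile genes were lower in 3. Cdkn1c differed by -1.77 (adjusted p = 0.0462), H19 by -2.64 and Dlk1 by -2.01. A library of this set, Mettl14 knockout replicate 3, was shallow, with 1303697 counts of which 7.57% were in genes overlapping ribosomal RNA sequence. Without it, 201 of the 423 and 71 of the 160 were called in the same direction and none in the opposite one, and the chemokine and contractile medians were 2.65 and -1.50, against 2.50 and -1.67 with it.

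A test of whether the line difference itself changed between the control libraries and those labelled knockout called 1 of 16126 genes (0.00620%), C3, and 938 genes at an unadjusted p under 0.05, where 806 would be expected. Leaving out Mettl14 knockout replicate 1 gave 10 calls, leaving out Mettl14 knockout replicate 2 gave 3, and leaving out replicate 3 of the Mettl3 controls or of the Mettl3 knockout gave 2 each. In plain CPM, C3 was at 272, 359 and 221 in the Mettl14 controls and 152, 266 and 234 in the Mettl14 libraries labelled knockout. In the Mettl3 line it had no count in the controls and was at 1.44, 2.28 and 0.966 in the libraries labelled knockout. The change of the line difference from the controls to the libraries labelled knockout was -7.96 on the log2 scale (edgeR adjusted p = 0.000408), a value that depends on the small count the fit adds to a group of zeros. With all libraries thinned to the depth of the shallowest, C3 was not called (-3.45, edgeR adjusted p = 0.776).

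The pattern reached into the inhibitor groups, which are given as values only, since each line had its own inhibitor. In plain CPM, Saa3 was at 2378 to 3073 in the 3 Mettl14 libraries with GSK-343, and at 0.589, 16.9 and 0 in the Mettl3 libraries with GSK-J4. Lcn2 was at 274 to 985 in the 3 Mettl14 libraries labelled knockout and at 449 to 775 with GSK-343, and it had no count in any of the 9 libraries of the Mettl3 line. Cxcl1 was at 2373 CPM in Mettl3 knockout replicate 1 with GSK-J4, above every Mettl14 library, but at 29.1 and 29.9 CPM in the other 2 of that group. H19 was at 7.36 to 9.69 CPM with GSK-J4, below every Mettl14 control, so the high level of the Mettl3 controls was not a property of all libraries of that line.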

How the data were processed

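RNA was counted per gene in the 3 Mettl14 and 3 Mettl3 control libraries. The authors deposited raw counts; per the submitters' processing notes CASAVA, Trimmomatic 0.38, HISAT2 2.1.0 and HTSeq were used with mm10. Per the labels' protocols, RNA with poly(A) tails was purified on magnetic beads before a strand-marking SMARTer kit. Neither the strand setting of the counting nor its annotation release is given in the sources used here, so overlapping and antisense genes cannot be told apart. Of 54446 gene identifiers, 54409 matched GENCODE M21, from which symbols and positions come.

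Only the 6 control libraries entered the main fit: edgeR 4.0.16 in R 4.3.3, filterByExpr, TMM factors and the quasi-likelihood F test, with a call at a Benjamini-Hochberg adjusted p under 0.05. The same fit was made for the libraries labelled knockout, and 12 libraries were used for the change of the line difference. The SE of a log2 difference is its size divided by the square root of F. CPM are TMM-scaled unless called plain. DESeq2 1.42.0, limma 3.58.1 (voom, added after seeing the data) and the other settings in the closing section are alternatives. Replicate pairs differed by more than sampling noise (chi-square per degree of freedom 18.97 to 77.8), so none was counted as a duplicate. Promoter sequences are RefSeq's (GRCm38.p6).

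Named are Mettl14 and Mettl3; up to 12 called protein-coding genes in each direction with the greatest differences, with at least 10 CPM in the higher group and no overlap; up to 4 list members with the smallest p; Xist and 4 Y-linked genes; the 5 protein-coding genes with the most counts; and genes without a count in a control group at 5 CPM or more in each library of the other. A few genes chosen this way are left out here. Other genes are said to be named after their values were seen. The comparison, its 70 gene lists and the rule were chosen with earlier results of these data known, and 5 lists were added after the values were seen.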

Additional observations from a re-analysis of the deposited data

Results flagged for a closer look

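The line difference of C3 changed between the control libraries and those labelled knockout, by -7.96 on the log2 scale (edgeR adjusted p = 0.000408), the 1 gene of 16126 to pass that test. It had no count in the 3 Mettl3 controls and 0.966 to 2.28 plain CPM in the 3 Mettl3 libraries labelled knockout, while the Mettl14 libraries of both kinds held 152 to 359 CPM. With libraries thinned to equal depth the change was -3.45 and was not called (edgeR adjusted p = 0.776).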

How the results depend on the processing

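The difference of the control groups, 583 calls, stayed within 1.5 times that count with DESeq2 (862), RLE (582), upper quartile factors (571), library totals (560), no low-count filter (806), libraries thinned to equal depth (620), the 12 libraries without inhibitor (461) and voom (718). It was 164 for a log2 difference beyond 1, 149 with all 18 libraries in the fit, and 357 to 603 with a library left out, the lowest without Mettl14 control replicate 2. The line difference of the libraries labelled knockout, 414 calls, was 710 with DESeq2, 690 with no filter, 132 for a log2 difference beyond 1, 190 with all 18 libraries, 252 without replicate 3 of both lines (a setting chosen after seeing the data) and 230 to 476 with a library left out. With library totals alone 46.8% of its 459 calls were higher, against 64% of the 414. The change of the line difference, 1 call, gave 3 with DESeq2, 46 with no filter, 0 when thinned and 1 to 10 with a library left out. The causes of these moves were not tested. Of 151 called genes recomputed, 106 kept their call with DESeq2, RLE, library totals, the block and each library left out, and none changed sign. Among uncalled genes, leaving out a library gave -0.39 to 0.085 for Mettl3 (positive without Mettl3 control replicate 2), -0.13 to 0.21 for Eif2s3y (-0.055 without Mettl14 control replicate 1, lowest without Mettl3 control replicate 1), -0.58 to 0.41 for Kdm5d (positive without Mettl3 control replicate 3) and -0.46 to 0.60 for Uty (negative without Mettl14 control replicate 1). No scaling moved the median of all genes beyond -0.066.

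Replicate numbers did not pair the control libraries: same-numbered deviations correlated at 0.0148, -0.0023 and -0.0741. With a replicate block the controls gave 568 calls, of which 510 were shared, the libraries labelled knockout 744, and the change of the line difference 1. Depth limits low genes: 3 counts were 0.292 to 0.362 CPM in the Mettl14 controls.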
